A study of Drosophila melanogaster with 3 samples.

Results

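The 8 Hox genes of Drosophila melanogaster were examined for binding by Eyegone (Eyg), a Pax-family transcription factor that carries a homeodomain, drives growth of the eye and acts in the salivary ducts. The genes were taken by name from the dm6 annotation, and they are 8 of the 13945 protein-coding genes on the 6 chromosome arms used. They lie in 2 groups on arm 3R, namely lab, pb, Dfd, Scr and Antp in the Antennapedia complex and Ubx, abd-A and Abd-B in the bithorax complex. The rule that names them uses no measured value.

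Binding was mapped by ChIP-seq, in which chromatin is cut into fragments, precipitated with an antibody and sequenced. The material was whole embryos aged 0 to 24 h, with males and females pooled, from a stable transgenic strain that makes Eyg with GFP at its C-terminus. The antibody recognised GFP, the chromatin was sonicated to 200 to 800 bp, and 3 biological replicates form the only group. Without another condition, nothing could be compared between groups. All samples carry the same transgene in 1 strain, and the labels do not give the level of the fusion protein in each tissue.

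Hox genes encode homeodomain transcription factors that give body segments their identity along the head-to-tail axis. Each is transcribed in its own set of segments under the control of long regulatory regions, and in the complexes these regions are kept apart by boundary elements and silenced by Polycomb-group proteins where the gene is off. Because whole embryos were used, strong binding in few cells and weak binding in many cells cannot be told apart.

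The authors' deposited lists give a signal on a scale that no source used here defines, a −log10 q-value and a summit for each region. Candidate lists, which hold peaks and background together, were deposited for the pool (23721 regions) and for replicates 1, 2 and 3 (30000, 30000 and 24609 regions). The optimal list holds the 2537 peaks that the authors kept by the irreproducible discovery rate, a measure of rank agreement. Its lowest signal was 108.325, and the highest pooled signal outside it was 108.323. The list thus equals the pooled candidates above 1 signal cut, so membership alone does not show that a peak ranked alike in every replicate. All peaks of the list had a −log10 q of at least 2. Share of optimal peaks, pooled signal and that q threshold are therefore not separate measures. No read counts are in the files, so library depth is unknown and single signals carry no interval. Signal may have its own scale in each list, so each value is read by its rank there, given as the percentage from the top.

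None of the 8 Hox genes had an optimal summit within 1 kb of a transcription start site (TSS), where 14.7% of all protein-coding genes had one. The optimal summit closest to a member TSS lay 12659 bp away, at Antp, and the farthest of these distances was 235657 bp, at lab. Over the 8 genes the median distance was 64524 bp, against 13533 bp over all genes. Among pooled candidates, 7 of the 8 genes had a summit within 1 kb, where 56.4% of all genes did. With only the outermost TSS of each gene, 5 of the 8 had one, and no share of all genes is given for that setting. In the lists of replicates 1, 2 and 3 the members with one numbered 5, 6 and 6, against 61.0%, 61.8% and 56.5% of all genes. Summits in all 3 replicate lists were found at 4 members, Dfd, Antp, abd-A and Abd-B, where 42.8% of all genes had them. With only 8 genes, none of these shares was tested against its background.

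The candidates at Hox promoters were weak. There were 11 of them in the pooled list, at the 19 TSSs of these genes, with signals from 37.7 to 63.9 and a median of 46.3. Only 2 exceeded 51.4, the median of all pooled candidates, and the median of all those within 1 kb of a TSS was 57.6. A region of every replicate list held the summit for 2 of the 11, against 45.7% of all pooled candidates within 1 kb of a TSS. For 5 of the 11 it was 2 lists and for 4 it was 1. The 2 seen in every list were 288 bp upstream of Dfd and 136 bp upstream of abd-A.

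**Figure D1:**
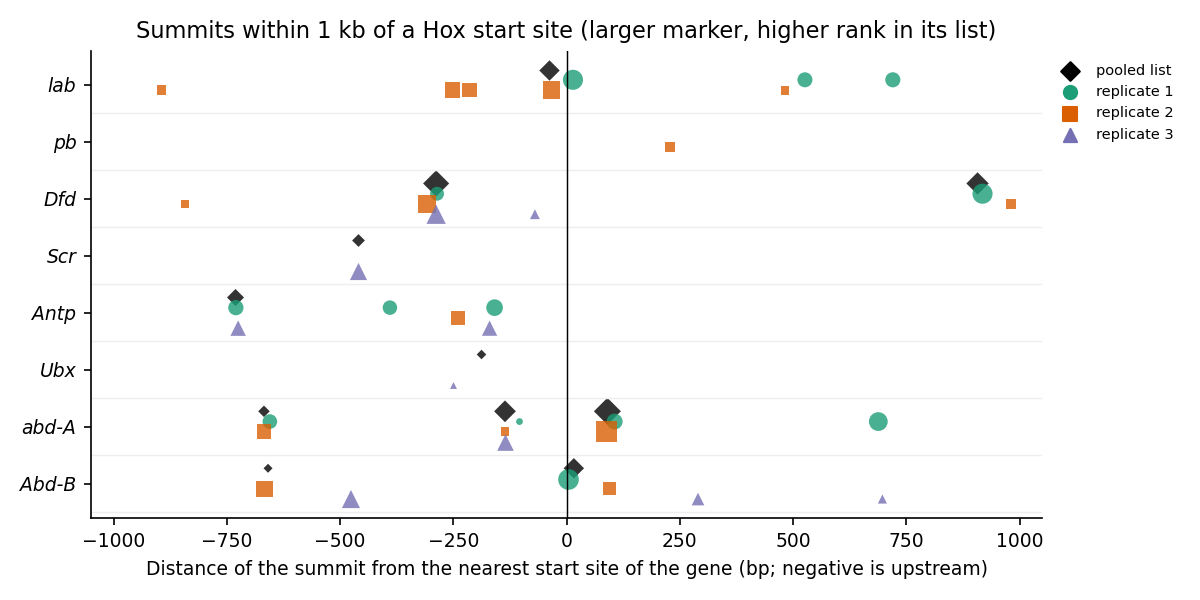
Summits within 1 kb of a TSS of each Hox gene in the pooled list and the 3 replicate lists, by distance in bp from the nearest TSS of that gene. Marker size grows with rank in its own list. Markers of all lists fall together at Dfd and at abd-A, pb has a single small marker from replicate 2, and those at Abd-B lie at different places.

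In the wider regulatory DNA, 3 optimal peaks were found, none of them at a promoter. A window was drawn from 10 kb before to 10 kb after each gene, and the 8 windows cover 497.5 kb. Antp had 2 of the optimal peaks and abd-A had 1. Thus 2 of 8 windows held an optimal summit, where 46.9% of the windows of all protein-coding genes did. Windows vary in length with the gene, and these shares were not adjusted for length. The stretches between the windows added 31 pooled candidates to the 87 inside them, but no optimal peak.

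**Figure D2:**
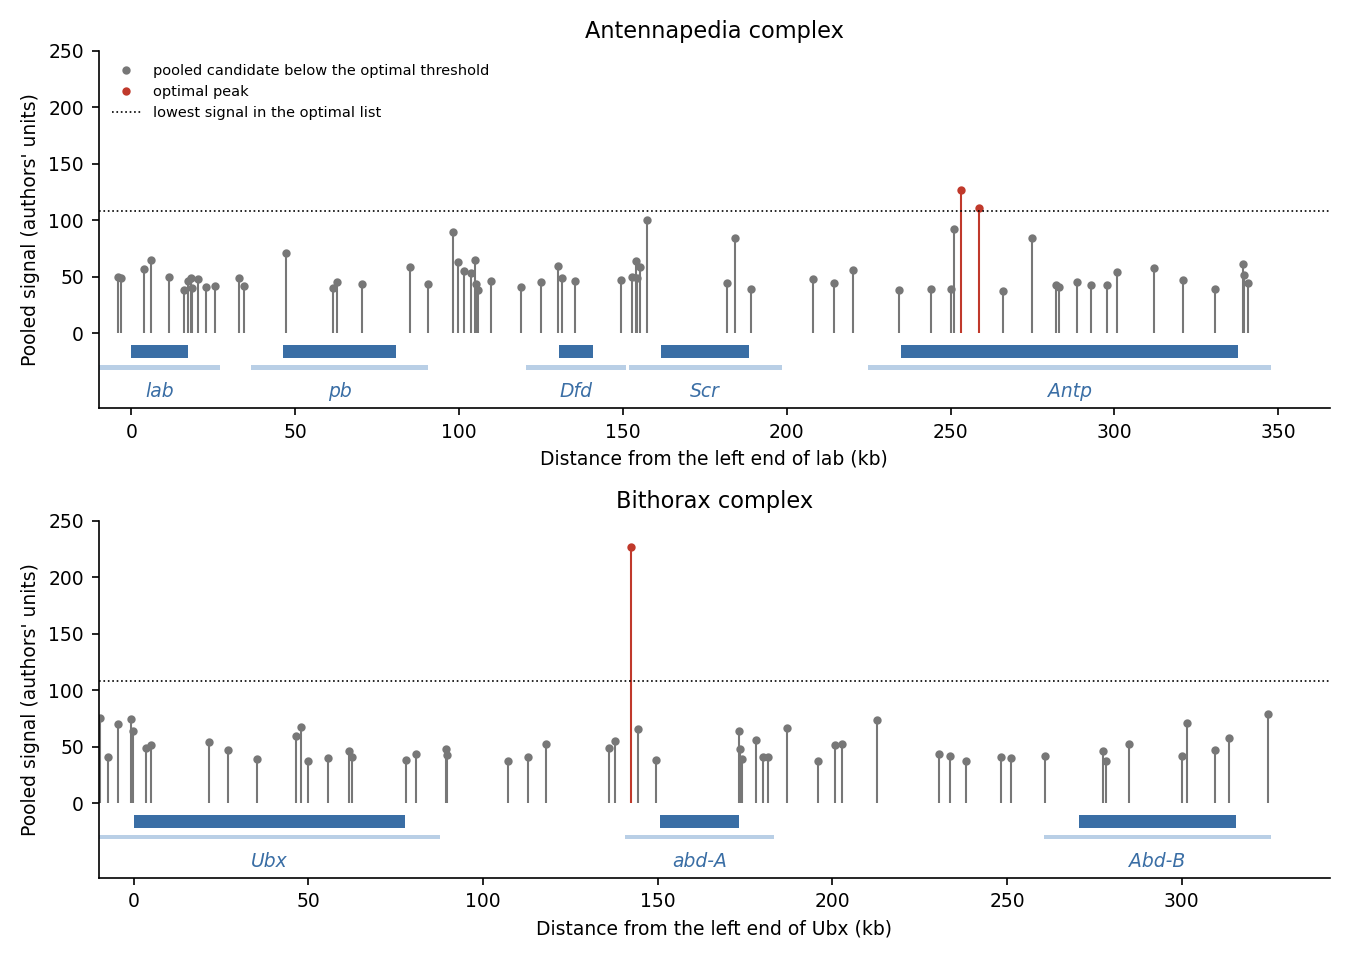
Pooled candidates along the Antennapedia complex (top) and the bithorax complex (bottom), by distance in kb from the left end of lab and of Ubx, with the authors' pooled signal on the vertical axis. Dark bars are genes, pale bars the windows, red the optimal peaks and the dotted line the lowest signal of the optimal list, 108.3. Only 2 peaks inside Antp and 1 peak left of abd-A reach the line.

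The strongest region of both complexes lay beside abd-A, which specifies the middle segments of the abdomen. The gene (FBgn0000014) spans chr3R:16807214-16830049 on the minus strand and has 3 annotated TSSs. It was at chr3R:16798841-16798971, between genes, 8338 bp beyond the 3′ end of abd-A and 1724 bp from the TSS of the long non-coding RNA gene CR45750. Among protein-coding genes, Glut3 had the nearest TSS, at 10565 bp. Its pooled signal was 226.7, rank 622 of 23721, and its width was 131 bp, where the other candidates of the Hox windows had 424 bp. Its signals were 63.8, 67.5 and 99.9 in replicates 1, 2 and 3. These put it at ranks 581, 892 and 488, within the top 1.94%, 2.97% and 1.98% of the lists. It was the highest region of the abd-A window in every replicate.

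Antp, which specifies the thorax and is the longest of the 8 genes, held the other optimal peaks. It (FBgn0260642) spans chr3R:6896253-6999228 on the minus strand, 103.0 kb, with 3 TSSs. Both peaks were in an intron, 18261 and 12659 bp downstream of the nearest annotated Antp TSS. The first, at chr3R:6914367-6914790, had a pooled signal of 127.0, rank 1891, and signals of 28.1, 46.9 and 49.5 in replicates 1, 2 and 3. The second, at chr3R:6919969-6920392, had a pooled signal of 111.1, rank 2421, just inside the optimal list, and signals of 24.1, 29.4 and 57.9. Replicate 1 ranked both peaks lowest, in its top 13.2% and 19.8%, where replicate 2 had them in its top 6.27% and 16.8% and replicate 3 in its top 7.69% and 5.68%. The gene CG46458 is annotated over the same introns, so these peaks cannot be assigned to Antp alone.

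Other Antp candidates fell short of the list. All 16 pooled candidates inside Antp were in introns. After the optimal peaks came candidates at chr3R:6912250-6912673 with a pooled signal of 91.9 and at chr3R:6936153-6936576 with 84.8. The former was the highest Antp region in replicate 1, at 50.2 or the top 3.31%, but reached 19.3 in replicate 2 and 41.0 in replicate 3. The order of the strongest Antp regions therefore differed between replicates, with another of the 3 regions first in each. At the TSSs of Antp the single pooled candidate was 731 bp upstream of the middle TSS, with a signal of 42.5.

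The 4 regions of highest signal in both complexes are shown because they include every optimal peak of the Hox windows and the candidate next in rank. The fourth, beside Scr, did not reach the optimal list. Each line gives the 201 bases centred on the summit, 5′ to 3′ on the plus strand of the RefSeq copy of the dm6 assembly. Capitals mark GAGAG, which the GAGA factor recognises, or its complement CTCTC, and the homeodomain core TAATTA.
abd-A 3′ side, chr3R:16798776-16798976: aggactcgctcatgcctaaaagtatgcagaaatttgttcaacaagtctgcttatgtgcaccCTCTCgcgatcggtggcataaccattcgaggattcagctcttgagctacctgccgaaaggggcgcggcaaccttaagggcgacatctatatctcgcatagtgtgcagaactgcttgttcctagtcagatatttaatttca
Antp intron, chr3R:6914479-6914679: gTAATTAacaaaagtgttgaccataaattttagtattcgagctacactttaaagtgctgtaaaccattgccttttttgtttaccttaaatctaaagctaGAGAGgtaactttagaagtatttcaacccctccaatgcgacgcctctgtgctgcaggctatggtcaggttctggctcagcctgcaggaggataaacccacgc
Antp intron, chr3R:6920081-6920281: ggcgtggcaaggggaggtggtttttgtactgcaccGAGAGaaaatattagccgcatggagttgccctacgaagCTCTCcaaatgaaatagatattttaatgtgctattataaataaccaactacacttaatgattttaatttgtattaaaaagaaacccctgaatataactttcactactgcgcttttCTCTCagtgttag
Scr 3′ side, chr3R:6818642-6818842: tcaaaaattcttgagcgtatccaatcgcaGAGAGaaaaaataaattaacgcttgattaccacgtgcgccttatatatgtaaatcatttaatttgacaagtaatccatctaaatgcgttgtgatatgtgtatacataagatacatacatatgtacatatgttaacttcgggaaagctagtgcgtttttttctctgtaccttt

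GAGAG or its complement occurred once near the abd-A summit, once and 3 times near the Antp summits and once near the Scr summit, and TAATTA occurred once, in the first Antp region. Over all pooled candidates, 24.5% held GAGAG on either strand within 100 bp of the summit and 11.0% held TAATTA. Among the 87 candidates of the Hox windows these shares were 29.9% and 8.05%. GCCAT, the core of the site of the Polycomb-group protein Pho, was in 48.3% of them and in 34.8% of all candidates, and in none of the 4 regions shown. The TAAT and ATTA pair 3 bases apart, a site for dimers of Paired-class homeodomains, was found in 1 of the 87 candidates (1.15%), against 1.24% of all. The Dref site TATCGATA was in 2 (2.30%), against 1.93%. The median GC content of these 201 bases was 46.3% in the Hox windows and 42.8% over all candidates. The part of base composition in the motif shares was not tested, and a match to such short letters is not a binding site by itself.

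Scr, which specifies the labial and first thoracic segments and is required for the salivary glands, came closest to the list after these. It (FBgn0003339) spans chr3R:6823120-6849981 on the minus strand and has 2 TSSs. The strongest candidate of its window, at chr3R:6818530-6818953, had a pooled signal of 99.8 and rank 2976, just outside the optimal list. It lay between genes, 4378 bp beyond the 3′ end of Scr and 1152 bp from the start of a lysine tRNA gene, tRNA:Lys-TTT-2-1. Its signals were 51.7 in replicate 2 and 49.1 in replicate 3, the top 5.20% and 7.80%, and no region of replicate 1 held its summit. The highest region of replicate 1 in the Scr window lay beside it, at chr3R:6818083-6818492, with a signal of 22.4, the top 24.4%. Inside Scr the highest candidate was intronic, 2889 bp downstream of a TSS, at chr3R:6845404-6845827. Its pooled signal was 84.2, and it was seen in every replicate with 18.8, 24.5 and 33.3. The promoter candidate, 460 bp upstream, had a pooled signal of 39.4 and was found in replicate 3 alone, with 20.4.

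The 3 genes of the head had no region near the optimal threshold. Of these, Dfd (FBgn0000439) spans chr3R:6791836-6802428 on the plus strand with 1 TSS, and it is the shortest member at 10.6 kb. For Dfd, which acts in the mandibular and maxillary segments, the strongest candidate of the window was at the promoter, 288 bp upstream at chr3R:6791336-6791759. It had a pooled signal of 59.6, the top 35.9% of that list, and signals of 15.1, 19.8 and 24.8. A second candidate 907 bp downstream, in a coding exon, had a pooled signal of 49.3, with 23.0 and 14.2 in replicates 1 and 2 and none in replicate 3. Both Dfd candidates were thus of middle rank in the pool, and the upstream one was present in all replicates.

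The gene lab (FBgn0002522) spans chr3R:6661427-6678590 on the minus strand with 2 TSSs, and pb (FBgn0051481) spans chr3R:6707800-6742063 on the same strand with 1. For lab, the most anterior of the Hox genes, a candidate 38 bp upstream of a TSS had a pooled signal of 46.3, with 23.0 and 19.3 in replicates 1 and 2. Replicate 3 had no summit within 1 kb, the nearest being 1212 bp away. The strongest candidate was intronic, at chr3R:6667245-6667668, with a pooled signal of 64.7 and 16.2, 25.5 and 23.9 in the replicates. For pb, which directs the formation of the adult mouthparts, the nearest pooled summit was 4350 bp from the TSS, well outside the 1 kb that Antp, the farthest gene within it, met at 731 bp. The strongest pb candidate was in a coding exon 33616 bp downstream of the TSS, with a pooled signal of 70.7 and 24.3, 18.0 and 27.6 in the replicates. The single pb summit within 1 kb in any list was in replicate 2, with a signal of 13.8, 88.3% of the way down that list.

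Ubx, which specifies the third thoracic and first abdominal segments, had 11 pooled candidates inside the gene and 18 in its window. It (FBgn0003944) spans chr3R:16656623-16734426 on the minus strand, 77.8 kb, with 1 TSS. The highest inside the gene was intronic, at chr3R:16704192-16704615, with a pooled signal of 67.4, 21.8 and 31.7 in replicates 2 and 3, and no region over its summit in replicate 1. The highest of the window, 75.8, lay 9533 bp beyond the 3′ end of Ubx and 86 bp from the TSS of CG10324, so it lies at the promoter of another gene. At the Ubx promoter a candidate 190 bp upstream had a pooled signal of 37.9, 97.6% of the way down the list, and 14.4 in replicate 3 alone. The Ubx window thus held 18.4 candidates per 100 kb, close to the 17.7 of the 6 arms. None was above the top 21.4% of the pooled list. The highest regions of the window in replicates 1, 2 and 3 were in the top 10.8%, 11.4% and 13.1% of those lists.

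At the promoter of abd-A there were 3 pooled candidates, and the regions of those 90 bp downstream and 136 bp upstream of a TSS overlap. The highest, 90 bp downstream of a TSS and in a 5′ UTR, had a pooled signal of 63.9, with 16.5 and 31.4 in replicates 1 and 2 and none in replicate 3. The candidate 136 bp upstream had a pooled signal of 48.3 and was in every replicate, with 12.6, 13.6 and 19.7. Replicate 1 placed the latter 97.6% of the way down its list, whereas replicate 2 placed the former in its top 14.5%. The signal beside the 3′ end, 226.7, was thus the higher one in the pool and in each replicate.

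Abd-B, which specifies the posterior abdomen and the genitalia, has 6 annotated TSSs, and its summits near them did not coincide between replicates. It (FBgn0000015) spans chr3R:16927212-16972236 on the minus strand. The candidate nearest a TSS, 16 bp downstream, had a pooled signal of 46.3 and was found in replicate 1 alone, with 24.9. Replicates 2 and 3 had their summits near other positions, with signals of at most 18.2 and 22.0. Inside the gene the highest candidate was intronic, at chr3R:16958077-16958500, with a pooled signal of 70.6. Replicate 2 gave it 43.5, but replicates 1 and 3 gave 13.5 and 15.2. The highest of the window, 79.1, was in an intron of AhcyL2, 825 bp from the TSS of that gene.

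**Figure D3:**
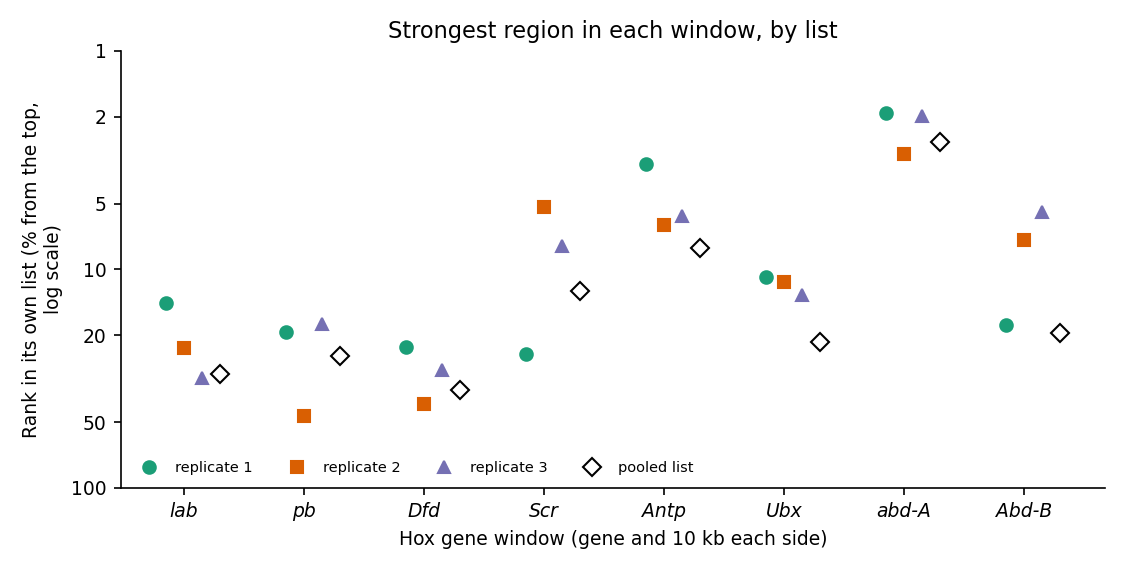
Rank of the strongest region in each Hox gene window, as a percentage from the top of its own list on a log scale, for the 3 replicate lists and the pooled list. The region may differ between lists, and longer windows have more room for a high one. The abd-A markers lie between 1.94% and 2.97%, above those of the other genes, and the Scr and Abd-B markers of replicate 1 lie well below those of replicates 2 and 3.

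The candidates around the Hox genes had a smaller share of optimal peaks and a lower median signal than all pooled candidates. The windows held 17.5 pooled candidates per 100 kb, where the 6 arms as a whole held 17.7 and the windows of all protein-coding genes had a median of 23.5. Of the 87 candidates, 3 (3.45%) were optimal peaks, where 10.7% of all pooled candidates were. Their median signal was 47.5 (95% binomial interval of the median 45.0 to 49.9, for counting error only) against 51.4. The interval takes the candidates as independent. They are neighbours in the same complexes and some overlap, so it is not a test against 51.4. Of the candidates in the windows, 37.9% exceeded the median of all candidates. Fewer than elsewhere were seen in every replicate, 18 (20.7%) against 37.4%. On average 61.7% ± 4.65 (SD, n = 3 replicates) of them were held by a replicate list, with 57.5%, 66.7% and 60.9% in replicates 1, 2 and 3, against 70.8%, 74.2% and 68.2% of all candidates. These differences were not tested.

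**Figure D4:**
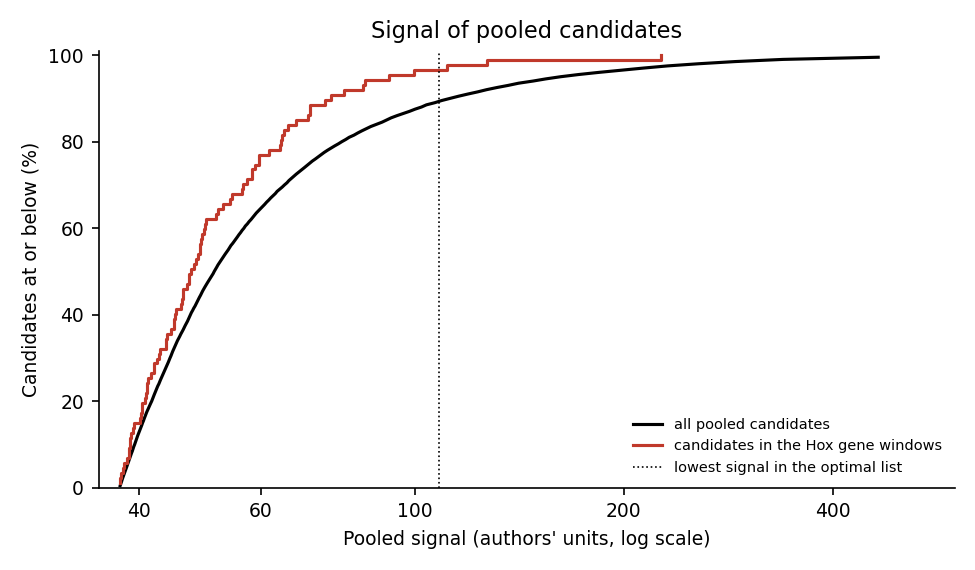
Cumulative share of candidates at or below each pooled signal (authors' units, log scale) for the 87 candidates in the Hox gene windows and for all pooled candidates. The dotted line is the lowest signal of the optimal list, 108.3. The curve of the Hox windows lies to the left, with a median of 47.5 against 51.4.

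Position differed as well. In the Hox windows 20 of 87 candidates (23.0%) lay within 1 kb of any protein-coding TSS, against 42.4% of all candidates. Candidates were also compared at like distance. Among those within 1 kb of a TSS, 0 of 20 in the Hox windows were optimal peaks, against 16.0% of all, with median signals of 48.7 and 57.6. Of the 20, 11 were near a Hox TSS, and the rest were near TSSs of other genes in the windows. Regions of all replicate lists held 4 of the 20 summits, against 45.7% of all such summits. Among candidates farther than 1 kb from a TSS the contrast was smaller, with optimal peaks making up 3 of 67 (4.48%) in the Hox windows and 6.81% of all candidates that far away, and median signals of 47.2 and 48.4. Summits in all replicate lists made up 20.9% and 31.2% of these. Introns held 50 of the 87 summits (57.5%, against 43.3% of all candidates), coding exons 6 (6.90%, against 16.2%) and the spaces between genes 23 (26.4%, against 25.8%). The Hox windows thus had the lower share of optimal peaks and the lower median signal within 1 kb. Beyond 1 kb both gaps were small, and the share there rests on only 3 peaks. Neither difference was tested.

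Candidates were spread unevenly over the 8 windows. The density was highest around lab, at 32.3 per 100 kb with 12 candidates, and lowest around pb, at 11.1 with 6. The other 6 windows lay between 13.8 (Abd-B) and 21.0 (abd-A), and Dfd, Scr and Antp were alike at 16.3, 17.1 and 16.3. Over the windows of all protein-coding genes the median was 23.5, with quartiles of 13.1 and 35.5. The lab window was denser than 69.0% of gene windows, and the other 7 than 22.5% to 43.7% of them. Both complexes had 17.5 candidates per 100 kb.

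**Figure D5:**
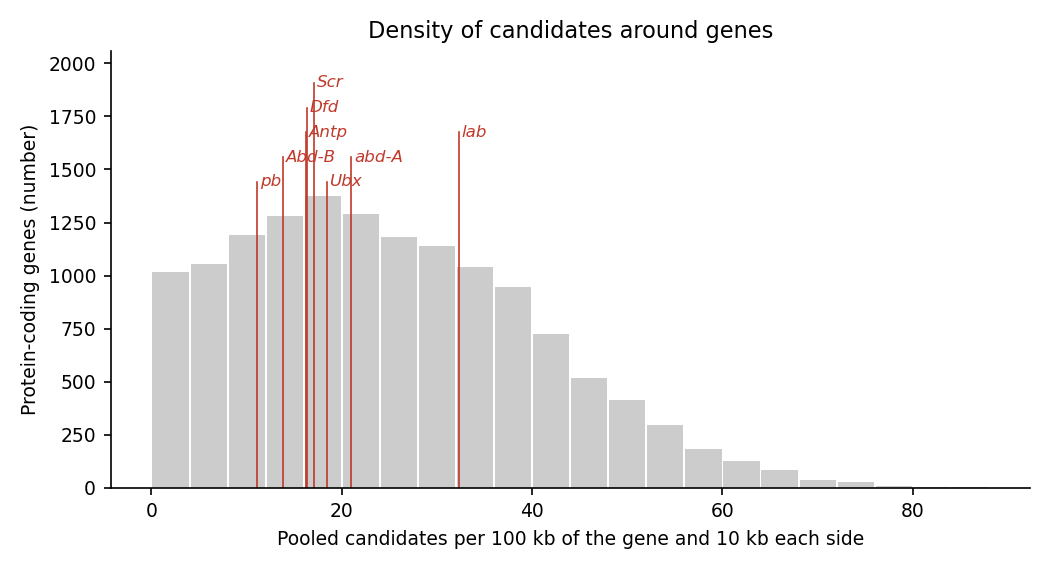
Histogram of the number of pooled candidates per 100 kb of gene and 10 kb on each side over all protein-coding genes, with red lines at the 8 Hox genes. The lines of 7 genes lie at or below 21.0 and that of lab at 32.3, with the median of all genes at 23.5.

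The neighbours and cofactors examined had no optimal summit within 1 kb of a TSS, where 14.7% of all protein-coding genes had one. With so few genes, this was not tested. In the Antennapedia complex, 2 of the 5 neighbours examined had a pooled candidate within 1 kb, where 56.4% of all protein-coding genes did. They were bcd, which encodes the anterior morphogen Bicoid, and Ama, which encodes a secreted protein of the immunoglobulin family. The bcd candidate, 178 bp from the TSS, had a pooled signal of 89.7 and was seen in every replicate with 32.8, 18.7 and 29.2. It was thus higher than any pooled candidate at a Hox promoter, the highest of which was 63.9. The Ama candidate had a signal of 54.9, and zen, zen2 and ftz had none. Of the cofactors exd, hth and tsh, tsh had candidates within 1 kb, the nearest 96 bp away with a signal of 41.0. Among 6 non-coding genes of the complexes, bxd alone had a pooled candidate within 1 kb, and no share of all non-coding genes is given. It had 2 whose regions overlap, of which the nearest was 120 bp away with a signal of 42.8. The other had a signal of 47.6 and was in every replicate list. In the pool mir-10, iab4, iab8, mir-iab-4 and mir-iab-8 had none, though the nearest to mir-iab-8 was 1003 bp away. At least 1 replicate list had a summit within 1 kb of mir-10, mir-iab-4, mir-iab-8, ftz and each cofactor.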

How the data were processed

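The authors called regions on dm6 against a control, once per replicate and once on the pool of the 3, and took the optimal list from the irreproducible discovery rate, per the labels and the deposited listings. No source used here names the aligner, the caller or their versions. The authors' signal and −log10 q-value of each region were used as deposited, and the dm3 lists and the control library were not used. Signal served to describe and rank regions within a list.

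Genes, TSSs and locations came from Ensembl release 115 on the dm6 assembly, without transposable elements, and sequence from the RefSeq copy of that assembly. Summits are the start plus the offset, printed 1-based. A pooled candidate was counted in a replicate when a region of that list held its summit, and where several did the strongest was taken. A summit in several annotations counted as coding exon first, then as 5′ UTR, then 3′ UTR, non-coding exon and last intron. Motifs were searched on both strands within 100 bp of summits. Counting was done in Python 3.11.15 with pandas 2.3.3 and tested on simulated data.

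The members and lists were chosen with earlier results of these data known, so no test was made of them. The genes named are the 8 members, listed neighbours and cofactors, and for each member the nearest optimal peak, the pooled candidate nearest a TSS and the strongest in the window and gene, of which some were added after their values were seen. Alternatives covered the TSSs and the distance from them, summit or whole region, the margin, the overlap that counts, stricter thresholds and each replicate left out.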

Additional observations from a re-analysis of the deposited data

How the results depend on the processing

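No Hox TSS had an optimal summit within 1 kb, and the count stayed at 0 with 2 kb or any base of the region. The closest optimal summit was 12659 bp away, so neither setting could reach it. The settings of 500 bp, the outermost TSS and the 1268 optimal peaks of highest signal can only lower a count. They therefore could not change this one. With a −log10 q of at least 2, no member had a pooled candidate near a TSS and 0 had one in all 3 replicate lists, 3 candidates stayed in the windows with a median signal of 127.0, and replicate lists held 4.60% of the 87 candidates on average. Of all pooled candidates 12.1% passed that threshold, against 3.45% in the Hox windows, where these were the same 3 optimal peaks. The cause was not tested. With the outermost TSS alone, 5 members in place of 7 had a pooled candidate within 1 kb, and with 500 bp 6 had one. The outermost TSS also left 2 members in place of 4 with some summit within 1 kb in each of the 3 replicate lists. No share of all genes is given for these settings. Leaving out 1 replicate at a time gave 4 to 5 members, and a mean share of 59.2% to 63.8% of candidates held by a replicate list. With no margin 47 candidates were counted in the genes themselves. With 20 kb the windows held 6 optimal peaks, some of them overlapping, and no share of all gene windows is given for that margin. With the 1268 highest optimal peaks the 10 kb windows held 1, the peak beside abd-A. Taking the complexes whole, a setting added after the data were examined, gave 118 candidates, 3 optimal peaks and a median signal of 47.5. Read depth is unknown, so weak regions may have been missed in any list, and 2 replicate lists hold exactly 30000 regions.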

Other observations

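The optimal peaks that entered with 20 kb around each gene all lay on the side of Abd-B away from the other Hox genes, at the promoters of other genes. Those at chr3R:16986573-16986728 (pooled signal 393.0) and chr3R:16986635-16987058 (152.0) overlap and lay 202 and 3 bp from the TSS of CG18622. That at chr3R:16991801-16992224 (225.7) lay 135 bp from the TSS of EMC2B. The first had a higher signal than any region of either complex.

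Some regions ranked high in a single replicate. In the Abd-B window, replicate 3 had its highest region at chr3R:16969891-16970306 with a signal of 58.7, the top 5.48% of its list, while the overlapping pooled candidate was in the top 39.0% of the pool. Between the windows of abd-A and Abd-B, an intronic candidate with its summit at chr3R:16869421 had a pooled signal of 73.5, with 49.0 in replicate 3, 14.2 in replicate 1 and no region over its summit in replicate 2.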
